A study of Mus musculus with 4 samples.

Results

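Interferon-stimulated effector genes encode the proteins that carry out the interferon response: they bind or degrade foreign nucleic acid, block virus entry and release, tag proteins with ISG15 or attract immune cells. The 40 genes described here are a list of such effectors by name, chosen with earlier results of these data known. Their shares beside those of all genes are thus no independent test. All 40 were among the 23240 gene rows of the processed table, and 37 had a mean of at least 1 RPKM (reads of a gene divided by its length and by the library's mapped reads) over the libraries and were tested. Ifit3, Ifi203 and Ifi204 were below that mean and are given by level only. Just inside the limit lay Ddx60, with a mean of 1.11 RPKM, and just outside it Ifi203, with 0.477 RPKM.

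RNA was sequenced from 4 libraries of mouse bone marrow cells from leukaemic animals, labelled RUNX1-FLT3ITD_AML and sorted by flow cytometry for GFP and BFP signal without the myeloid surface proteins CD11b and Gr1. Marrow was cultured for 22 h in SFEM medium with 4 cytokines (IL3, IL11, SCF and FLT3L) and received either 200 nM 4OHT or ethanol (EtOH) in an equal volume. 4OHT, 4-hydroxytamoxifen, is commonly used to switch proteins fused to a hormone-binding domain, but the labels do not say what it acts on in these cells. The groups were 4OHT in Runx1 delta/delta cells, 4OHT in Runx1 delta/+ cells, EtOH in Runx1 delta/delta cells and EtOH in Runx1 delta/+ cells, all on a B6 background by their label, with 1 library each. Runx1 delta/delta is the label of both libraries numbered replicate 1 and Runx1 delta/+ that of both numbered replicate 2, so genotype, mouse and replicate number cannot be told apart. The labels give neither the way Runx1 was deleted, nor what GFP and BFP mark, nor the age of the mice, nor whether a replicate was 1 mouse or a pool. With 1 library per group, no p-value measures a spread between repeats of a group. In the fit with treatment and genotype, a p-value rests on how unlike the changes with 4OHT were in the genotypes. It also borrows from the spread of all tested genes, and both may be technical.

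Type I interferons bind the receptor chains Ifnar1 and Ifnar2, whose kinases Jak1 and Tyk2 act on transcription factors, among them Stat2. With Irf9, Stat2 is part of a complex that binds the interferon-stimulated response element (ISRE) in promoters of the effector genes, while interferon gamma acts through gamma-activated sites (GAS). In blood cells a low level of this programme is kept up without infection, and interferon acts on stem cells, progenitors and leukaemic cells alike.

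Promoters of effector genes are shown for the ISRE letters that many of those with a promoter window held. RefSeq promoter windows (GRCm38.p6, from 250 bases before to 50 after the start of each gene) were found for 29 of the 40 genes by symbol; Usp18, Mx1, Mx2, Dhx58, Zbp1, Ifi204, Parp9, Parp14, Ifi27l2a, Rtp4 and Tor3a had no entry. The ISRE core was searched as GAAA, any 2 bases and GAAA, or its reverse complement TTTC, any 2 bases and TTTC. The GAS was searched as TTC, any 3 bases and GAA, which is its own reverse complement. A match to the ISRE core was present for 16 of the 29 genes (55.2%), against 1079 of 27025 genes in the RefSeq table (3.99%). Counted by window the core was in 17 of 38 member windows (44.7%) and in 3.44% of all windows of that length. A GAS match was in 7 of the 29 genes (24.1%) and in 9.55% of all genes, and in 2 of those 7 it overlapped an ISRE core match. A match describes letters and not a bound site.

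The 13 sequences that follow are 30-base stretches of the gene's own strand, 5′ to 3′, around the first match in the window, and capitals mark every complete ISRE core match, with overlapping matches run together.
Ifit3: gtggtaagTTTCACTTTCctcttctggttg
Gbp2: tcttttagTTTCACTTTCactgtcttaagc
Gbp3: ggacacagTTTCAGTTTCTATTTCccagat
Igtp: taggaactGAAACTGAAAgctgttcgggca
Irgm1: tgtttcaaGAAATAGAAACCGAAActgatt
Rsad2: ggtccaacTTTCATTTTCagaaaacagaaa
Ifitm3: aaattcagGAAAAGGAAActtctgagaaac
Ddx60: gatgaatgGAAACCGAAActtaaagcttct
Eif2ak2: tccgccggGAAAACGAAAcagaagagaacc
Ifi203: gagctgggGAAATCGAAAgctatgaacagt
Cxcl10: acgctttgGAAAGTGAAActtacctcactc
Lgals9: acatcagcTTTCTTTTTCtctagacacttc
Apol9b: ggtgagacTTTCAGTTTCCATTTCccagtt
For genes with several windows in the table the one with the most matches is shown. The first matches lay between position -213 in Cxcl10 and position 19 in Eif2ak2, counted with -1 as the last base before the start and 1 as the first base of the gene.

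The 250 bases before the start are shown whole for 4 genes that the results turn on, again on the gene's strand with ISRE core matches in capitals. Isg15 (chr4:156200819-156201068, minus strand) and Ifit1 (chr19:34640639-34640888, plus strand) held matches and were among the members that fell most with 4OHT. Cmpk2 (chr12:26468965-26469214, plus strand) held none and fell by a like amount, and Bst2 (chr8:71537473-71537722, minus strand) held overlapping matches and did not pass the test.
Isg15: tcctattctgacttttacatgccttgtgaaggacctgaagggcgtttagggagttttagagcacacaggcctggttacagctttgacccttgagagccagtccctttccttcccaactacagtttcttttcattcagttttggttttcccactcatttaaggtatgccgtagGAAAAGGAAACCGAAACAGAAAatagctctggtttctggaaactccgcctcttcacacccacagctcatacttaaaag
Ifit1: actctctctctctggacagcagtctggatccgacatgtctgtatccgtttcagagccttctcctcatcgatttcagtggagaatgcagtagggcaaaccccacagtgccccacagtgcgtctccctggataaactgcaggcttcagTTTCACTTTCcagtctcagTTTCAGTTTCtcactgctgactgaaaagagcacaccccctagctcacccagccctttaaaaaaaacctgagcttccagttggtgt
Cmpk2: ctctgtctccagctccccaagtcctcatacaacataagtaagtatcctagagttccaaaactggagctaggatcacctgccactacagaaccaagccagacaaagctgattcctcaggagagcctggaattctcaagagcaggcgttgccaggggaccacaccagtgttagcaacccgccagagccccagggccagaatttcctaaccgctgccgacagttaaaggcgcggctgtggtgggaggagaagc
Bst2: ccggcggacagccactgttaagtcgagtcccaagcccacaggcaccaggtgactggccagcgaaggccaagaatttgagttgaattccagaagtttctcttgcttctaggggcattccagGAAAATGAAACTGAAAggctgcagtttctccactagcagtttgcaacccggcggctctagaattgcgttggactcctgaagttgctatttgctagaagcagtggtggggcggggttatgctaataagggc
Isg15 had 3 overlapping matches in a row, the first starting at -78 and the last at -66, whereas Ifit1 had 2 separate ones, on the other strand, starting at -104 and -85. The GAAA repeats of Bst2 began at -130 and -124.

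**Figure D1:**
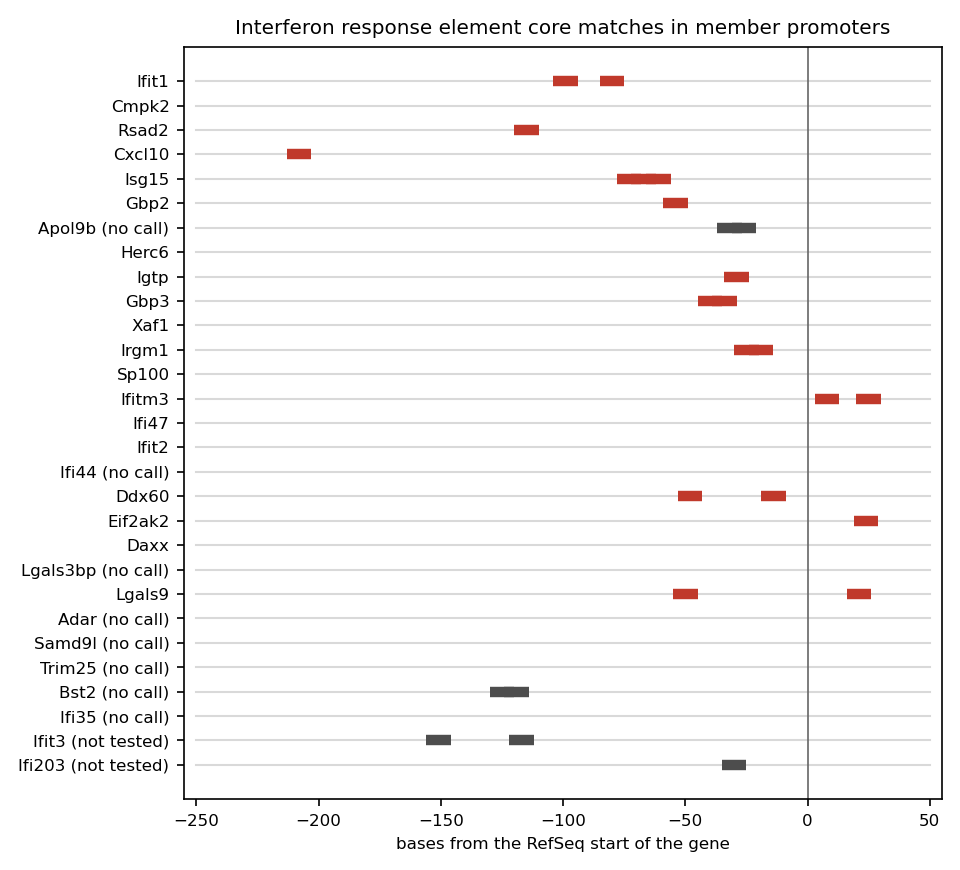
Positions of ISRE core matches (bars) in the 300-base promoter windows of the 29 genes with a window, in bases from the RefSeq start of the gene; red marks genes that fell with 4OHT and grey those that did not pass the test or were not tested. Matches lie on both sides of the start, and most lie before it.

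Of the 29 genes with a window, the core was present in 12 of the 19 that fell with 4OHT (63.2%), in 2 of the 8 that did not pass the test (25.0%) and in both untested ones. Herc6, Sp100, Xaf1, Ifi47, Ifit2, Daxx and Cmpk2 fell without a match in this window. These shares were not tested.

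The libraries held 36.7 M mapped reads with 4OHT in delta/delta cells, 39.4 M with 4OHT in delta/+ cells, 34.6 M with EtOH in delta/delta cells and 33.7 M with EtOH in delta/+ cells, recovered from the steps between RPKM values. Runx1, the gene altered in the genotypes, had 380.5 (delta/delta) and 328 (delta/+) RPKM with 4OHT, against 568 (delta/delta) and 555 (delta/+) RPKM with EtOH. The deposited values do not show which exons these reads cover, so the level does not check the deletion. Of the markers of immature blood cells, Kit did not exceed 1.61 RPKM and Cd34 did not exceed 0.395 RPKM in any library, while Flt3 and Myb were present. The marker counts here stand beside 10.2% of all tested genes called lower and 22.2% called higher with 4OHT. Of 4 tested progenitor or blast markers 2 rose with 4OHT and 0 fell, and the summed level of the 8 on the list was 137 (delta/delta) and 179 (delta/+) RPKM with 4OHT, against 41.9 (delta/delta) and 147 (delta/+) RPKM with EtOH. Myb, a transcription factor of immature blood cells, had 99.2 (delta/delta) and 84.5 (delta/+) RPKM with 4OHT, against 17 (delta/delta) and 37.5 (delta/+) RPKM with EtOH. Of 7 T or NK markers 6 were under 1 RPKM in all libraries, and the summed level, most of it Nkg7, was 6.70 (delta/delta) and 2.77 (delta/+) RPKM with 4OHT, against 0.280 (delta/delta) and 0.384 (delta/+) RPKM with EtOH. The CD11b gene Itgam was at or below 0.358 RPKM in every library. Red-cell genes were high: 9 of 10 erythroid markers fell with 4OHT and none was at 0, and their summed level was 3982 (delta/delta) and 2243 (delta/+) RPKM with 4OHT, against 51687 (delta/delta) and 25824 (delta/+) RPKM with EtOH. Of 6 tested megakaryocyte markers 5 fell and 1 rose, with sums of 61.9 (delta/delta) and 56.8 (delta/+) RPKM with 4OHT, against 128 (delta/delta) and 179 (delta/+) RPKM with EtOH. In bulk RNA, fewer cells of a type and less RNA per cell cannot be told apart, and the part of these marker lists in the results on effector genes was not tested.

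Exposure to 4OHT was accompanied by lower levels of most effector genes in both genotypes. Of the 37 tested genes 26 fell (70.3%) and 0 rose, beside 10.2% of all 9595 tested genes called lower and 22.2% called higher (limma on log2(RPKM + 1) with treatment and genotype as terms, Benjamini-Hochberg adjusted p under 0.05). Among the 26, Ddx60 and Cxcl10 were under 1 RPKM in both 4OHT libraries and met the limit on the mean through the EtOH libraries. The median log2 change of the 37 genes was -1.15, against 0.16 over all tested genes. With median-ratio scaling of the libraries 32 members were called lower and 0 higher, and the split over all genes became 1221 higher and 1325 lower, against 2130 higher and 983 lower with the RPKM as deposited. Cmpk2, Ifit1, Rsad2 and Isg15 had the smallest adjusted p-values, with log2 changes between -3.64 and -2.38. The summed level of the 40 genes was 2736 (delta/delta) and 1013 (delta/+) RPKM with 4OHT, against 4993 (delta/delta) and 2039 (delta/+) RPKM with EtOH. As a share of all RPKM these sums were 0.596% (delta/delta) and 0.247% (delta/+) with 4OHT, against 1.02% (delta/delta) and 0.480% (delta/+) with EtOH.

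The fall was present within each genotype for most members. Levels were lower with 4OHT in both pairs for 34 of the 37 genes (91.9%), beside 26.8% of all tested genes, and at least 2-fold lower in both pairs for 18 (48.6%), beside 5.07%. For 18 genes (48.6%) both 4OHT libraries lay below both EtOH libraries, beside 16.9% of all tested genes. Without the filter on low values 19 members were called lower; Usp18, Ifit2, Ifi47, Zbp1, Lgals9, Ifi27l2a and Xaf1 were not, with adjusted p-values between 0.0506 and 0.130. The counts of calls rest on the genotype term: without it limma called 1 member lower, Parp14, and 117 genes higher and 116 lower in all. With 1 library left out and only treatment as a term, 0 members were called lower without the EtOH delta/delta library, 6 without the 4OHT delta/delta library, 4 without the EtOH delta/+ library and 0 without the 4OHT delta/+ library. In these fits the groups differ in genotype as well as in treatment. An exact permutation test of 2 libraries against 2 cannot give a two-sided p below 0.333.

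**Figure D2:**
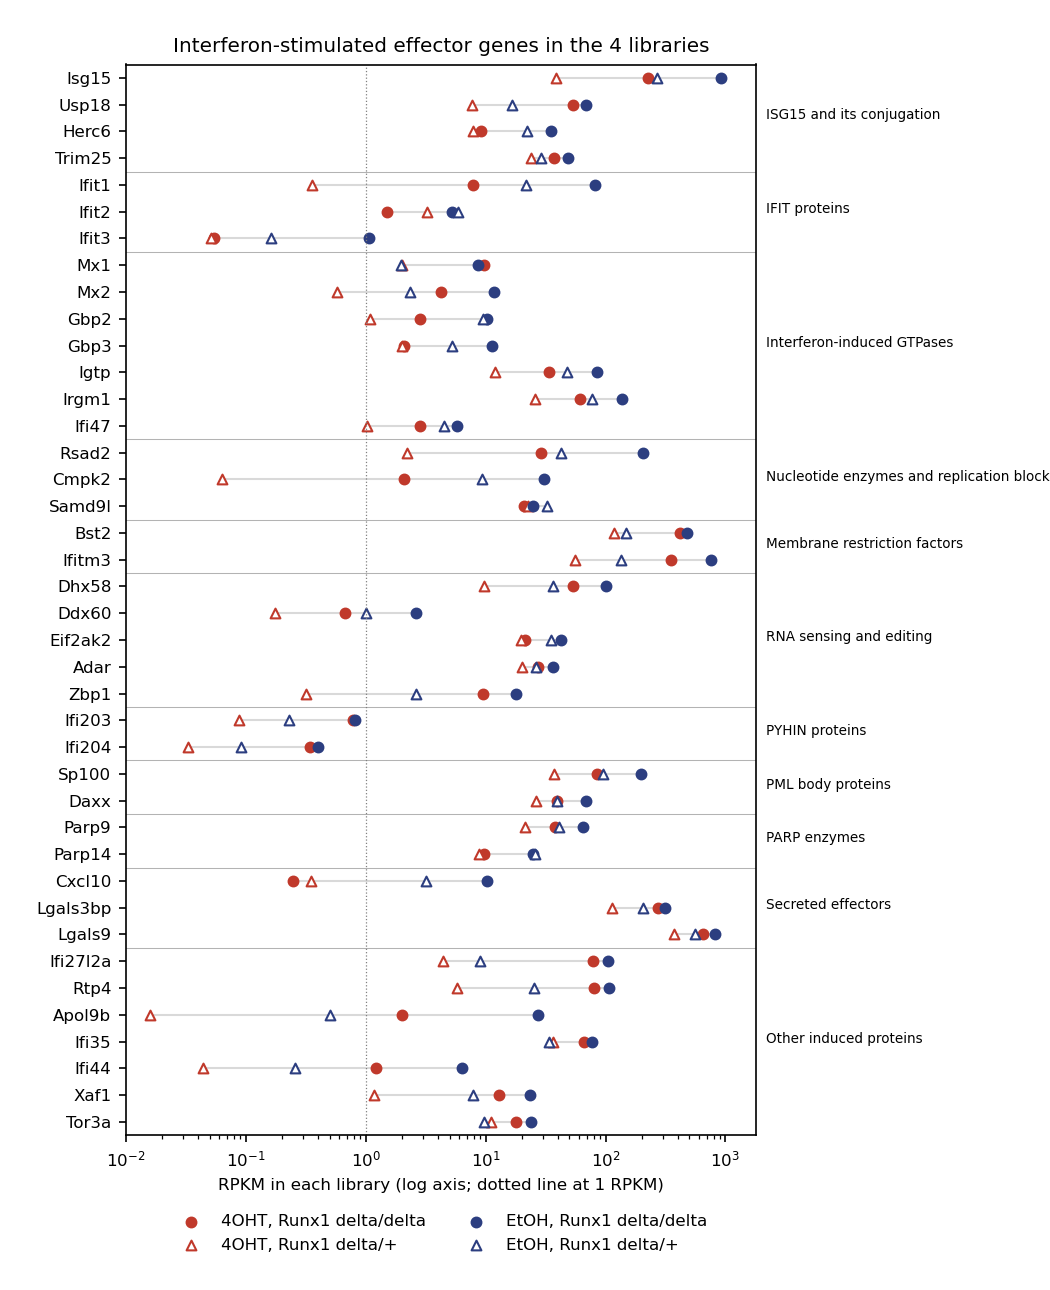
RPKM of the 40 genes in the 4 libraries on a log axis, ordered by role, with 4OHT in red and EtOH in blue, Runx1 delta/delta as filled circles and Runx1 delta/+ as open triangles; the dotted line is at 1 RPKM. For most genes the highest level is in the EtOH delta/delta library and the lowest in the 4OHT delta/+ library.

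Of the ISG15 system, 3 of 4 genes fell; log2 changes here and for all other genes are limma estimates ± SE with their adjusted p. ISG15 is a ubiquitin-like protein that is joined to other proteins. Isg15 had 227 (delta/delta) and 39 (delta/+) RPKM with 4OHT, against 919 (delta/delta) and 268 (delta/+) RPKM with EtOH. It fell 4.05-fold in delta/delta and 6.86-fold in delta/+ cells (log2 change -2.38 ± 0.20, adjusted p = 0.00315), and both 4OHT libraries were below both EtOH libraries. Herc6, the main mouse ligase that attaches ISG15, had 9.2 (delta/delta) and 7.9 (delta/+) RPKM with 4OHT, against 34.9 (delta/delta) and 22.2 (delta/+) RPKM with EtOH. It fell in both genotypes without overlap of the groups (log2 change -1.6 ± 0.16, adjusted p = 0.00459). Usp18, the protease that removes ISG15 and also restrains the type I receptor, had 53.4 (delta/delta) and 7.72 (delta/+) RPKM with 4OHT, against 68.8 (delta/delta) and 16.6 (delta/+) RPKM with EtOH. Its fall was small beside its difference between genotypes (log2 change -0.69 ± 0.19, adjusted p = 0.0472), so that the 4OHT delta/delta library stayed above the EtOH delta/+ library. Trim25, a ubiquitin ligase that helps to activate the RNA sensor RIG-I, did not pass the test. It had 36.9 (delta/delta) and 24.1 (delta/+) RPKM with 4OHT, against 49 (delta/delta) and 28.9 (delta/+) RPKM with EtOH (log2 change -0.33 ± 0.14, adjusted p = 0.122).

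The IFIT proteins bind foreign RNA and block its translation. Ifit1, whose promoter was shown for its 2 ISRE matches, had 7.89 (delta/delta) and 0.356 (delta/+) RPKM with 4OHT, against 81 (delta/delta) and 21.8 (delta/+) RPKM with EtOH. This was 10.3-fold lower in delta/delta and 61.3-fold lower in delta/+ cells (log2 change -3.64 ± 0.23, adjusted p = 0.00194). The 4OHT delta/+ value rests on 37 reads, against 764 to 7391 reads in the other libraries. Ifit2, another gene of the cluster on chromosome 19, had 1.5 (delta/delta) and 3.21 (delta/+) RPKM with 4OHT, against 5.29 (delta/delta) and 5.86 (delta/+) RPKM with EtOH (log2 change -1.02 ± 0.20, adjusted p = 0.0186). Its estimate was smaller than that of Ifit1, and within 4OHT it was lower in delta/delta than in delta/+ cells. Ifit3 was too low to test, with 0.0545 (delta/delta) and 0.0508 (delta/+) RPKM with 4OHT, against 1.06 (delta/delta) and 0.163 (delta/+) RPKM with EtOH. These were 4 (delta/delta) and 4 (delta/+) reads with 4OHT, against 73 (delta/delta) and 11 (delta/+) with EtOH. Reads of Ifit3 may also be shared with its near-identical copy Ifit3b, so its level is uncertain.

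Among the interferon-induced GTPases, which act on virus particles and on the membranes around intracellular pathogens, 6 of 7 fell. The guanylate-binding protein gene Gbp2 had 2.86 (delta/delta) and 1.07 (delta/+) RPKM with 4OHT, against 10.3 (delta/delta) and 9.52 (delta/+) RPKM with EtOH (log2 change -1.95 ± 0.23, adjusted p = 0.00584). Its EtOH values lay close together in the genotypes and its 4OHT values did not. Gbp3 had 2.09 (delta/delta) and 2.0 (delta/+) RPKM with 4OHT, against 11.4 (delta/delta) and 5.22 (delta/+) RPKM with EtOH (log2 change -1.52 ± 0.25, adjusted p = 0.0118), with 4OHT levels alike in the genotypes. The immunity-related GTPase genes Igtp, Irgm1 and Ifi47 fell together. Igtp had 34.1 (delta/delta) and 12 (delta/+) RPKM with 4OHT, against 84.7 (delta/delta) and 47.8 (delta/+) RPKM with EtOH (log2 change -1.6 ± 0.19, adjusted p = 0.00587). Irgm1 had 61.7 (delta/delta) and 25.8 (delta/+) RPKM with 4OHT, against 136 (delta/delta) and 76.7 (delta/+) RPKM with EtOH (log2 change -1.33 ± 0.16, adjusted p = 0.00587), and Ifi47 had 2.85 (delta/delta) and 1.02 (delta/+) RPKM with 4OHT, against 5.79 (delta/delta) and 4.52 (delta/+) RPKM with EtOH (log2 change -1.14 ± 0.21, adjusted p = 0.0148). For all 3 genes the fold was larger in delta/+ than in delta/delta cells, and both 4OHT libraries were below both EtOH libraries.

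The Mx genes, which encode dynamin-like GTPases against viruses, were split, since Mx2 fell and Mx1 was not called. Mx2 had 4.23 (delta/delta) and 0.576 (delta/+) RPKM with 4OHT, against 11.7 (delta/delta) and 2.33 (delta/+) RPKM with EtOH (log2 change -1.18 ± 0.16, adjusted p = 0.00747), a 2.75-fold fall in delta/delta and a 4.04-fold fall in delta/+ cells. Mx1 had 9.78 (delta/delta) and 2.01 (delta/+) RPKM with 4OHT, against 8.61 (delta/delta) and 1.95 (delta/+) RPKM with EtOH. Its values within a genotype were close together in both genotypes and it was the 1 member with an estimate above 0 (log2 change 0.10 ± 0.15, adjusted p = 0.649), an estimate that turned to -0.067 with median-ratio scaling of the libraries. In most laboratory strains of mice, C57BL/6 included, the Mx1 gene carries an inactivating mutation, and which transcript these reads come from is not given here.

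Rsad2 and Cmpk2 lie side by side on chromosome 12, with 0 protein-coding genes between them in RefSeq, and both act on nucleotides. Rsad2 encodes viperin, which makes a chain-terminating nucleotide, and had 29.1 (delta/delta) and 2.2 (delta/+) RPKM with 4OHT, against 207 (delta/delta) and 42.7 (delta/+) RPKM with EtOH. This was 7.11-fold lower in delta/delta and 19.4-fold lower in delta/+ cells (log2 change -3.28 ± 0.25, adjusted p = 0.00288). Cmpk2 encodes a mitochondrial kinase of nucleoside monophosphates and had 2.08 (delta/delta) and 0.0637 (delta/+) RPKM with 4OHT, against 30.8 (delta/delta) and 9.38 (delta/+) RPKM with EtOH. It had the smallest adjusted p of all members (log2 change -3.33 ± 0.15, adjusted p = 0.00124), its log2 changes being -3.37 in delta/delta and -3.29 in delta/+ cells. The pseudocount compresses this pair: in RPKM the fall was 14.8-fold in delta/delta cells and, resting on 8 reads with 4OHT, 147-fold in delta/+ cells. Samd9l, which restrains growth and virus replication, was not called at the threshold. It had 20.8 (delta/delta) and 22.6 (delta/+) RPKM with 4OHT, against 24.6 (delta/delta) and 32.7 (delta/+) RPKM with EtOH (log2 change -0.37 ± 0.15, adjusted p = 0.108), and both 4OHT libraries were below both EtOH libraries by small folds.

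The membrane restriction factors Ifitm3 and Bst2 were abundant; Ifitm3 fell with 4OHT and Bst2 was not called. Ifitm3, which blocks the fusion of viruses with the cell, had 351 (delta/delta) and 56.1 (delta/+) RPKM with 4OHT, against 759.6 (delta/delta) and 133 (delta/+) RPKM with EtOH. The falls of 2.17-fold in delta/delta and 2.38-fold in delta/+ cells were alike (log2 change -1.17 ± 0.12, adjusted p = 0.00459). Bst2, or tetherin, holds budding virus particles at the cell surface and had 415 (delta/delta) and 118 (delta/+) RPKM with 4OHT, against 476 (delta/delta) and 148 (delta/+) RPKM with EtOH. It was 1.15-fold lower in delta/delta and 1.25-fold lower in delta/+ cells and was not called (log2 change -0.26 ± 0.12, adjusted p = 0.15). Its promoter held overlapping ISRE core matches. With median-ratio scaling Bst2, Trim25, Samd9l, Adar, Lgals3bp and Rtp4 were called lower too.

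Of the genes for RNA sensing and editing, 4 of 5 fell. Zbp1, a sensor of Z-form nucleic acid that can trigger cell death, had 9.49 (delta/delta) and 0.317 (delta/+) RPKM with 4OHT, against 17.9 (delta/delta) and 2.61 (delta/+) RPKM with EtOH (log2 change -1.15 ± 0.20, adjusted p = 0.0126). In delta/+ cells 27 reads remained with 4OHT, against 190 with EtOH. Dhx58 encodes LGP2, a regulator of the RIG-I-like sensors, and had 53.3 (delta/delta) and 9.75 (delta/+) RPKM with 4OHT, against 102 (delta/delta) and 36.7 (delta/+) RPKM with EtOH (log2 change -1.36 ± 0.23, adjusted p = 0.0127). The helicase gene Ddx60 had 0.677 (delta/delta) and 0.174 (delta/+) RPKM with 4OHT, against 2.61 (delta/delta) and 0.996 (delta/+) RPKM with EtOH (log2 change -0.94 ± 0.20, adjusted p = 0.0234). Eif2ak2 encodes PKR, the kinase that stops translation when it binds double-stranded RNA. It had 21.3 (delta/delta) and 19.9 (delta/+) RPKM with 4OHT, against 42.7 (delta/delta) and 35.2 (delta/+) RPKM with EtOH (log2 change -0.88 ± 0.14, adjusted p = 0.0103), nearly the same fold in both genotypes. Adar, which edits adenosine to inosine in double-stranded RNA, had 27.5 (delta/delta) and 20.1 (delta/+) RPKM with 4OHT, against 36.2 (delta/delta) and 26.3 (delta/+) RPKM with EtOH (log2 change -0.38 ± 0.13, adjusted p = 0.0835) and was not called.

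The genes of PML nuclear bodies and the PARP enzymes fell by moderate folds. Sp100, a PML body protein, had 85.7 (delta/delta) and 37.2 (delta/+) RPKM with 4OHT, against 196 (delta/delta) and 94.4 (delta/+) RPKM with EtOH (log2 change -1.25 ± 0.13, adjusted p = 0.00462). Daxx, a histone chaperone of those bodies, had 39.3 (delta/delta) and 26.2 (delta/+) RPKM with 4OHT, against 69 (delta/delta) and 39.2 (delta/+) RPKM with EtOH (log2 change -0.68 ± 0.14, adjusted p = 0.0199). Both genes fell in both genotypes, but only for Sp100 were both 4OHT libraries below both EtOH libraries, and for Daxx the delta/delta 4OHT and delta/+ EtOH values were close together. Parp14, an ADP-ribosyl transferase, had 9.7 (delta/delta) and 8.74 (delta/+) RPKM with 4OHT, against 24.9 (delta/delta) and 25.7 (delta/+) RPKM with EtOH (log2 change -1.37 ± 0.14, adjusted p = 0.00459). Its values hardly differed between genotypes, and it was the member still called without the genotype term. Parp9 had 38.1 (delta/delta) and 21.2 (delta/+) RPKM with 4OHT, against 64.8 (delta/delta) and 40.8 (delta/+) RPKM with EtOH (log2 change -0.83 ± 0.14, adjusted p = 0.0114). In the PYHIN family, Ifi203 and Ifi204 were low in every library. Ifi203 had 0.776 (delta/delta) and 0.087 (delta/+) RPKM with 4OHT, against 0.816 (delta/delta) and 0.227 (delta/+) RPKM with EtOH. Ifi204 had 0.344 (delta/delta) and 0.0332 (delta/+) RPKM with 4OHT, against 0.403 (delta/delta) and 0.0905 (delta/+) RPKM with EtOH, and reads of these close relatives may be shared.

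Secreted effectors ranged widely in level. Cxcl10, a chemokine for T and NK cells, had 0.248 (delta/delta) and 0.346 (delta/+) RPKM with 4OHT, against 10.4 (delta/delta) and 3.21 (delta/+) RPKM with EtOH (log2 change -2.42 ± 0.37, adjusted p = 0.00984). It had 10 (delta/delta) and 15 (delta/+) reads with 4OHT, against 394 (delta/delta) and 119 (delta/+) with EtOH, and the fold was larger in delta/delta cells. Lgals9, or galectin-9, had the highest mean of the 40 genes and a small fall, with 647 (delta/delta) and 371 (delta/+) RPKM with 4OHT, against 815 (delta/delta) and 563 (delta/+) RPKM with EtOH (log2 change -0.47 ± 0.12, adjusted p = 0.0363). Lgals3bp, a secreted glycoprotein that binds galectins, had 273 (delta/delta) and 113 (delta/+) RPKM with 4OHT, against 314 (delta/delta) and 207 (delta/+) RPKM with EtOH and was not called (log2 change -0.53 ± 0.19, adjusted p = 0.0787).

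Of the remaining 7 induced genes, 2 fell and 5 were not called with 4OHT. Xaf1, an antagonist of the apoptosis inhibitor XIAP, had 12.8 (delta/delta) and 1.17 (delta/+) RPKM with 4OHT, against 23.6 (delta/delta) and 7.88 (delta/+) RPKM with EtOH (log2 change -1.43 ± 0.29, adjusted p = 0.0195). Ifi27l2a, which encodes a small membrane protein, had 79.2 (delta/delta) and 4.38 (delta/+) RPKM with 4OHT, against 105 (delta/delta) and 8.91 (delta/+) RPKM with EtOH (log2 change -0.64 ± 0.17, adjusted p = 0.038). In both genes the fall was larger in delta/+ cells. Rtp4, a chaperone of cell-surface receptors, had 80.1 (delta/delta) and 5.73 (delta/+) RPKM with 4OHT, against 108 (delta/delta) and 25.4 (delta/+) RPKM with EtOH (log2 change -1.2 ± 0.36, adjusted p = 0.055); it was 4.43-fold lower in delta/+ but 1.34-fold lower in delta/delta cells. Ifi44 had 1.22 (delta/delta) and 0.0436 (delta/+) RPKM with 4OHT, against 6.38 (delta/delta) and 0.255 (delta/+) RPKM with EtOH (log2 change -1.0 ± 0.37, adjusted p = 0.0899). It was 5.24-fold lower in delta/delta and 5.85-fold lower in delta/+ cells, but the delta/+ values rest on 5 (4OHT) and 25 (EtOH) reads and the pseudocount of 1 hides most of that change. Apol9b, an apolipoprotein L gene whose reads may be shared with its near copy Apol9a, had 2.0 (delta/delta) and 0.0159 (delta/+) RPKM with 4OHT, against 27.5 (delta/delta) and 0.502 (delta/+) RPKM with EtOH (log2 change -1.91 ± 0.60, adjusted p = 0.0623). It was 13.8-fold lower in delta/delta cells, and in delta/+ cells it had 1 read with 4OHT and 27 with EtOH, an EtOH to 4OHT ratio of 31.6 (exact 95% interval 5.20 to 1292, counting error only). With a pseudocount of 0.1 both Ifi44 and Apol9b were called lower and Usp18 was not.

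Besides Mx1, the members that did not follow the group in both pairs were Ifi35 and Tor3a. Ifi35, a partner of the signalling protein Nmi, had 65.6 (delta/delta) and 36.6 (delta/+) RPKM with 4OHT, against 77 (delta/delta) and 33.5 (delta/+) RPKM with EtOH (log2 change -0.05 ± 0.15, adjusted p = 0.811). Tor3a, a torsin family ATPase, had 18.1 (delta/delta) and 11 (delta/+) RPKM with 4OHT, against 24.1 (delta/delta) and 9.69 (delta/+) RPKM with EtOH (log2 change -0.11 ± 0.18, adjusted p = 0.667). Both were lower with 4OHT in delta/delta and higher with 4OHT in delta/+ cells.

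**Figure D3:**
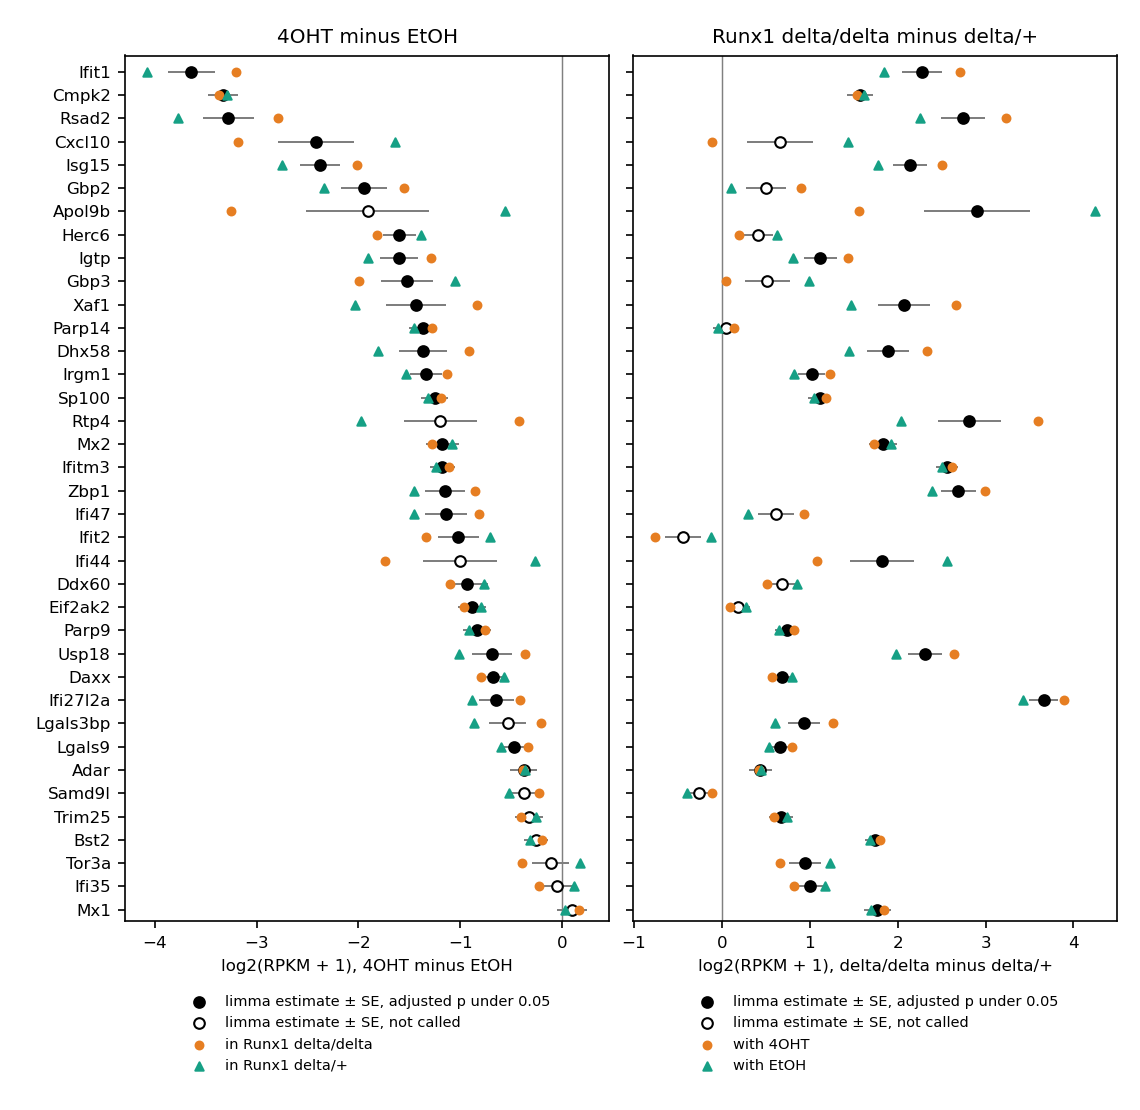
Estimated differences of log2(RPKM + 1) for the 37 tested genes, 4OHT minus EtOH on the left and Runx1 delta/delta minus delta/+ on the right, with black points for the limma estimate (filled where adjusted p was under 0.05, bars ± SE) and coloured points for the single pairs of libraries. Estimates on the left run from -3.64 for Ifit1 to 0.10 for Mx1, and those on the right from -0.44 for Ifit2 to 3.66 for Ifi27l2a.

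The effector genes also differed between the genotypes, with most of them higher in Runx1 delta/delta cells. In the same fit 26 of the 37 genes were higher in delta/delta cells (70.3%) and 0 lower, beside 4.68% of all tested genes called higher and 6.91% called lower. Among the 26, Apol9b and Ifi44 were under 1 RPKM in both delta/+ libraries and met the limit on the mean through the delta/delta libraries. The median log2 difference, delta/delta minus delta/+, was 1.02 for the effector genes and -0.03 over all tested genes. It was 1.18 between the 4OHT libraries and 1.18 between the EtOH libraries. Levels were higher in delta/delta cells with both treatments for 33 genes (89.2%), beside 33.9% of all tested genes, and at least 2-fold higher with both for 18 (48.6%), beside 1.51%. Both delta/delta libraries were above both delta/+ libraries for 19 genes (51.4%), beside 17% of all tested genes. With 1 library left out, and only genotype as a term, 0 members were called in each of the 4 fits, and without the filter on low values 0 members and 0 genes were called, with 30 members and 3906 genes at an unadjusted p under 0.05.

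Ifi27l2a and Ifitm3 had the smallest adjusted p-values of this comparison. Ifi27l2a had 79.2 (4OHT) and 105 (EtOH) RPKM in delta/delta cells, against 4.38 (4OHT) and 8.91 (EtOH) RPKM in delta/+ cells, an 18.1-fold difference with 4OHT and an 11.8-fold difference with EtOH (log2 difference 3.66 ± 0.17, adjusted p = 0.00677). For Ifitm3 the delta/delta values were 6.26-fold higher with 4OHT and 5.69-fold higher with EtOH (log2 difference 2.56 ± 0.12, adjusted p = 0.00677). Both genes encode small membrane proteins, and their genotype difference exceeded their change with 4OHT.

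Bst2, which did not pass the test for 4OHT, was higher in delta/delta cells, with 415 (4OHT) and 476 (EtOH) RPKM in delta/delta cells, against 118 (4OHT) and 148 (EtOH) RPKM in delta/+ cells (log2 difference 1.74 ± 0.12, adjusted p = 0.0126). Mx1 was also higher in delta/delta cells, with 9.78 (4OHT) and 8.61 (EtOH) RPKM in delta/delta cells, against 2.01 (4OHT) and 1.95 (EtOH) RPKM in delta/+ cells (log2 difference 1.77 ± 0.15, adjusted p = 0.0126). So were Ifi35 (log2 difference 1.0 ± 0.15, adjusted p = 0.0282) and Tor3a (log2 difference 0.95 ± 0.18, adjusted p = 0.0375). None of these 4 genes was called with 4OHT. Zbp1 had 9.49 (4OHT) and 17.9 (EtOH) RPKM in delta/delta cells, against 0.317 (4OHT) and 2.61 (EtOH) RPKM in delta/+ cells (log2 difference 2.69 ± 0.20, adjusted p = 0.0126), and Usp18 had 53.4 (4OHT) and 68.8 (EtOH) RPKM in delta/delta cells, against 7.72 (4OHT) and 16.6 (EtOH) RPKM in delta/+ cells (log2 difference 2.31 ± 0.19, adjusted p = 0.0126). Of the genes named for their fall with 4OHT, Rsad2 (log2 difference 2.74 ± 0.25, adjusted p = 0.0126), Isg15 (log2 difference 2.14 ± 0.20, adjusted p = 0.0126), Ifit1 (log2 difference 2.28 ± 0.23, adjusted p = 0.0147) and Cmpk2 (log2 difference 1.58 ± 0.15, adjusted p = 0.0126) were higher in delta/delta cells too.

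Several members that fell with 4OHT were not called between genotypes. Parp14 (log2 difference 0.05 ± 0.14, adjusted p = 0.843), Eif2ak2 (log2 difference 0.18 ± 0.14, adjusted p = 0.396), Herc6 (log2 difference 0.41 ± 0.16, adjusted p = 0.154) and Gbp2 (log2 difference 0.50 ± 0.23, adjusted p = 0.195) were among them. Gbp3, Ifi47, Ddx60 and Cxcl10 had estimates between 0.52 and 0.68 and adjusted p-values between 0.0875 and 0.274. Ifit2 (log2 difference -0.44 ± 0.20, adjusted p = 0.204) and Samd9l (log2 difference -0.25 ± 0.15, adjusted p = 0.287) were the only 2 tested members with an estimate below 0, neither of them called. Adar had a small estimate (log2 difference 0.44 ± 0.13, adjusted p = 0.0924).

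Cell markers moved with genotype as well, and their counts stand beside 4.68% of all tested genes called higher and 6.91% called lower. The 3 tested neutrophil markers of 8 were higher in delta/delta cells, and the summed level of the 8 was 51.7 (4OHT) and 46.6 (EtOH) RPKM in delta/delta cells, against 20.0 (4OHT) and 18.2 (EtOH) RPKM in delta/+ cells. Of the 10 erythroid markers 5 were higher in delta/delta cells and 0 lower, with sums of 3982 (4OHT) and 51687 (EtOH) RPKM in delta/delta cells, against 2243 (4OHT) and 25824 (EtOH) RPKM in delta/+ cells. Other lists were lower in delta/delta cells. Of 4 tested progenitor or blast markers 3 were lower and 0 higher, with sums of 137 (4OHT) and 41.9 (EtOH) RPKM in delta/delta cells, against 179 (4OHT) and 147 (EtOH) RPKM in delta/+ cells. Of 3 tested conventional dendritic markers, a list that also holds Flt3, 2 were lower and 0 higher, with sums of 20.9 (4OHT) and 18.2 (EtOH) RPKM in delta/delta cells, against 45.7 (4OHT) and 56.8 (EtOH) RPKM in delta/+ cells. Of 6 tested megakaryocyte markers 1 was lower, as was the 1 tested marker of stroma or endothelium. Ly6c2, one of the proteins that Gr1 antibodies bind, was higher in delta/delta cells (log2 difference 1.3 ± 0.25, adjusted p = 0.0378). The part of these cell types in the genotype difference was not tested. Plasmacytoid dendritic cells, which express Bst2 and make interferon, left little trace: Siglech, Ccr9 and Klk1 were listed at 0 in all libraries, and the summed level of their markers without Bst2 was 4.16 (delta/delta) and 3.89 (delta/+) RPKM with 4OHT, against 3.20 (delta/delta) and 3.12 (delta/+) RPKM with EtOH. Of 9 monocyte and macrophage markers 8 were under 1 RPKM in all libraries, with Cx3cr1 at 0 and sums between 1.19 and 2.32 RPKM.

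Most members shared the same highest and lowest library, but not the order of the other two. Of the 37 genes, 30 were highest in the EtOH delta/delta library and lowest in the 4OHT delta/+ library (81.1%), beside 12.4% of all tested genes. The exceptions were Ifit2, Mx1, Samd9l, Parp14, Cxcl10, Ifi35 and Tor3a. The 4OHT delta/delta library was above the EtOH delta/+ library in 16 of the 30, among them Usp18, Bst2, Ifitm3 and Rtp4 (43.2% of the 37, beside 5.28% of all tested genes with that full order). It was below the EtOH delta/+ library in the other 14, among them Isg15, Ifit1, Rsad2 and Cmpk2 (37.8% of the 37, beside 7.07% of all tested genes). Calls in both comparisons, lower with 4OHT and higher in delta/delta, were made for 17 members (45.9%), beside 1.59% of all tested genes. They included Isg15, Ifit1, Rsad2, Cmpk2, Ifitm3 and Zbp1. The 4 libraries enter both comparisons. The median level of the 37 genes was 21.3 (delta/delta) and 7.90 (delta/+) RPKM with 4OHT, against 42.7 (delta/delta) and 25.4 (delta/+) RPKM with EtOH.

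**Figure D4:**
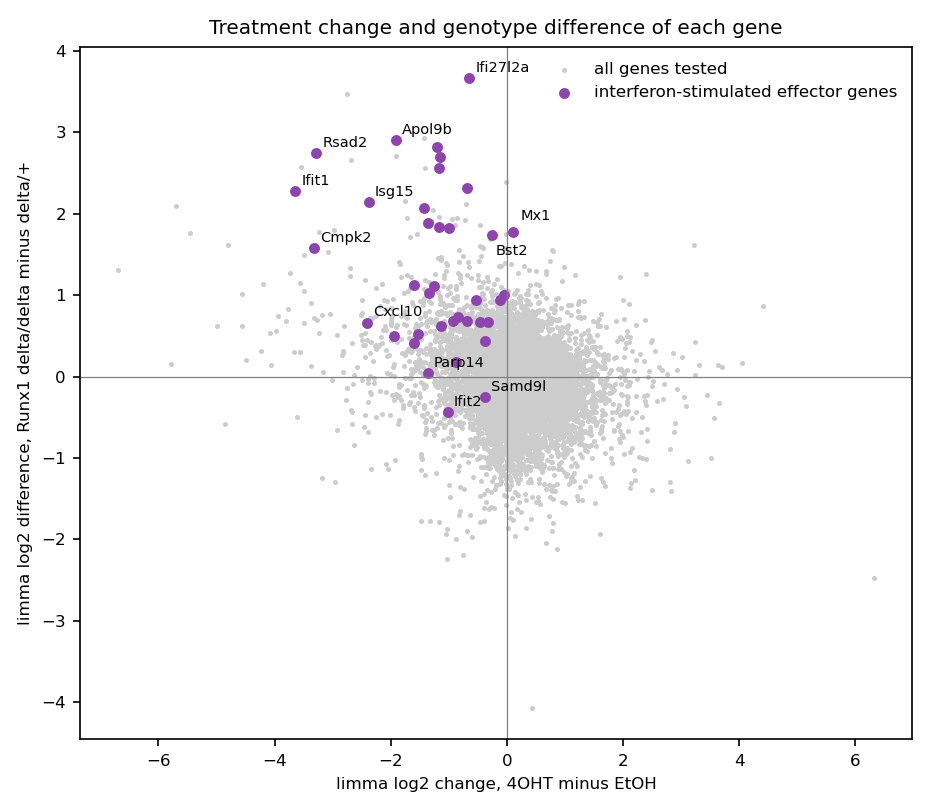
Each tested gene by its limma log2 change with 4OHT (x axis) and its limma log2 difference between Runx1 delta/delta and delta/+ (y axis), with the 37 effector genes in purple and all 9595 tested genes in grey. Most effector genes lie in the upper left, lower with 4OHT and higher in delta/delta cells; Mx1 and Bst2 lie near 0 on the x axis and Parp14 near 0 on the y axis.

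Whether the response to 4OHT differed between genotypes could not be tested, since a fit with that term leaves 0 residual degrees of freedom. The median log2 change was -0.97 in delta/delta and -1.05 in delta/+ cells. The log2 change was lower in delta/+ cells for 22 of 37 genes (59.5%), beside 54.4% of all tested genes, a share near the background. On the log2(RPKM + 1) scale the widest gaps among the 37 genes were those of Apol9b, Rtp4 and Cxcl10, and they ran in both directions. Apol9b changed by -3.25 in delta/delta and by -0.56 in delta/+ cells, Rtp4 by -0.42 in delta/delta and by -1.97 in delta/+ cells, and Cxcl10 by -3.19 in delta/delta and by -1.64 in delta/+ cells. Apol9b in delta/+ cells and Cxcl10 with 4OHT were under 1 RPKM, where the pseudocount limits the change that can be seen. As ratios of RPKM, Apol9b was 13.8-fold lower in delta/delta and 31.6-fold lower in delta/+ cells, the opposite order, and Cmpk2 was 14.8-fold lower in delta/delta and 147-fold lower in delta/+ cells.

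Genes upstream of the effectors moved in more than 1 direction. Of 18 interferon genes 16 were listed at 0 in all libraries, and the highest value of any was 0.191 RPKM. Of 8 tested receptor chains and kinases, 4 fell and 2 rose with 4OHT; the shares over all tested genes, 10.2% lower and 22.2% higher, apply to this and the following lists. The interferon gamma receptor chain Ifngr2 had 1.26 (delta/delta) and 0.245 (delta/+) RPKM with 4OHT, against 16.4 (delta/delta) and 9.89 (delta/+) RPKM with EtOH (log2 change -3.04 ± 0.16, adjusted p = 0.00153), while its partner chain Ifngr1 had 49.3 (delta/delta) and 47.4 (delta/+) RPKM with 4OHT, against 3.39 (delta/delta) and 9.07 (delta/+) RPKM with EtOH (log2 change 2.89 ± 0.30, adjusted p = 0.00466). The type I receptor chain Ifnar2 fell (log2 change -0.93 ± 0.14, adjusted p = 0.00922), as did Il10rb, the chain that receptors for type III interferon and IL-10 share (log2 change -1.39 ± 0.14, adjusted p = 0.00425).

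Of 8 tested transcription factors of the pathway, 5 fell and 1 rose. Irf7, the factor that amplifies interferon gene transcription, had 238 (delta/delta) and 26.3 (delta/+) RPKM with 4OHT, against 671 (delta/delta) and 138 (delta/+) RPKM with EtOH (log2 change -1.92 ± 0.22, adjusted p = 0.00578), highest and lowest in the same libraries as most effectors. Stat2 (log2 change -1.11 ± 0.17, adjusted p = 0.00936) and Irf1 (log2 change -1.19 ± 0.19, adjusted p = 0.010) fell too, and Irf9, the partner of Stat2, was not called (log2 change -0.41 ± 0.13, adjusted p = 0.0664). Stat3 rose (log2 change 0.81 ± 0.14, adjusted p = 0.0128). Irf7 was higher in delta/delta cells (log2 difference 2.7 ± 0.22, adjusted p = 0.0126), and Stat2 was not called between genotypes (log2 difference 0.30 ± 0.17, adjusted p = 0.264).

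Of 9 tested nucleic acid sensors and adaptors 2 fell and 3 rose, numbers too small to set apart from the shares over all tested genes. The RNA sensor genes Ddx58 (log2 change -1.15 ± 0.16, adjusted p = 0.00781) and Ifih1 (log2 change -0.69 ± 0.13, adjusted p = 0.0173) fell. Tmem173, which encodes the adaptor STING of the DNA-sensing pathway, had 11.1 (delta/delta) and 18 (delta/+) RPKM with 4OHT, against 0.126 (delta/delta) and 0.438 (delta/+) RPKM with EtOH (log2 change 3.57 ± 0.17, adjusted p = 0.00124), and the kinase gene Tbk1 rose as well (log2 change 1.06 ± 0.16, adjusted p = 0.00963). Of the OAS genes, most of which encode enzymes that make the signal for RNA decay, 7 of 8 fell and 0 rose. The OAS genes Oas1g (log2 change -1.43 ± 0.15, adjusted p = 0.00477), Oasl2 (log2 change -2.68 ± 0.30, adjusted p = 0.00562), Oas3 (log2 change -3.54 ± 0.42, adjusted p = 0.0060) and Oasl1 (log2 change -1.04 ± 0.13, adjusted p = 0.00651) were among them.

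Among 34 other tested interferon-stimulated genes 19 fell and 5 rose. That list shares some genes with the lists above, Oasl2 among them. Ube2l6, the conjugating enzyme of ISG15, had 273 (delta/delta) and 73.7 (delta/+) RPKM with 4OHT, against 732 (delta/delta) and 238 (delta/+) RPKM with EtOH (log2 change -1.55 ± 0.13, adjusted p = 0.00315), and Gbp7 (log2 change -1.23 ± 0.13, adjusted p = 0.00525) and Isg20 (log2 change -1.18 ± 0.13, adjusted p = 0.00547) fell as well. Ifi30, a thiol reductase of antigen processing, rose (log2 change 1.46 ± 0.15, adjusted p = 0.00462). Over all 65 other tested pathway genes, each counted once, 35 fell and 11 rose with 4OHT, with a median log2 change of -0.49. Of these genes 28 were higher and 3 lower in delta/delta cells, with a median difference of 0.62. Over all tested genes 4.68% were called higher and 6.91% lower in delta/delta cells.

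The authors' deposited table holds, for each pair of libraries, a Kal's Z-test, which compares those libraries and not the conditions. At a corrected p under 0.05 the authors' deposited table called 12 of the 40 genes lower in delta/delta and 11 lower in delta/+ cells, and 0 higher in either. Lower calls over all 23240 rows of the authors' deposited table made up 1.26% in delta/delta and 0.96% in delta/+ cells. These shares include rows below a mean of 1 RPKM, unlike the shares over the 9595 tested genes. In the authors' deposited table Isg15, Ifit1, Igtp, Irgm1, Rsad2, Ifitm3, Dhx58, Sp100 and Lgals9 were called lower in both genotypes.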

How the data were processed

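Per the labels' protocols, RNA came from sorted cells and libraries were made with a TruSeq or a NEBNext kit; which library had which is not stated. The submitters' processing notes name mm9; aligner, counting rule, annotation and strand use are not named in the sources used here. The authors deposited RPKM per library and, per the file headers, a fold, p-value and corrected p-value for each pair (Kal's Z-test). Whole reads and mapped totals (33.7 to 39.4 M) were recovered from RPKM steps, with a tolerance of 0.001 reads for all 40 members. Each total was shared by 166 to 405 genes with a single transcript. The gene length used was the smallest that made the values of all libraries whole, so read numbers are the lowest that fit. Most such lengths matched no GENCODE transcript, those of Ifit1, Apol9b and Cmpk2 among them. Only the lengths of Isg15, Usp18, Dhx58, Ddx60, Lgals9, Ifi27l2a and Rtp4 did match. Between 2 (Parp14) and 43 (Ifi27l2a) lengths fitted the values of a member, so read numbers are uncertain. RPKM has no count test, so limma 3.58.1 (R 4.3.3) was fitted on log2(RPKM + 1). It had treatment and genotype as terms and a trended prior, tests were two-sided, and the threshold was 0.05 after Benjamini-Hochberg adjustment over the 9595 genes averaging 1 RPKM or more. Genotype is the replicate number and serves as the block: same-numbered libraries deviated together (correlation across genes 0.664). Residual degrees of freedom were 1, plus 4.37 of the prior. Folds in single pairs are ratios of RPKM, and log2 values use the pseudocount of 1, which understates changes of low genes. Library correlations ran from 0.869 to 0.964. Alternatives were a pseudocount of 0.1, no filter, median-ratio scaling, no genotype term and leaving out each library. Promoter windows are from RefSeq (GRCm38.p6) by symbol, and no mm9 coordinates were used. Full values are given for the 12 members with the smallest adjusted p for 4OHT, every tested member not called or of the other sign, and the 6 with the smallest adjusted p between genotypes. Up to 4 genes of each pathway list by p are given by log2 change and adjusted p, only some of them with RPKM. The same holds for further genes chosen after their values were seen. Some genes of the pathway lists are not reported here and are left out of the lists' counts. Members and lists were chosen with earlier results of these data known. Sequencing data other than the deposited table were not used here.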

Additional observations from a re-analysis of the deposited data

Results flagged for a closer look

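2 members stood out because their pairs of libraries moved in opposite directions, lower with 4OHT in Runx1 delta/delta cells and higher with 4OHT in Runx1 delta/+ cells. For Ifi35 the log2 change was -0.23 in delta/delta and 0.12 in delta/+ cells, a difference of -0.35. For Tor3a it was -0.39 in delta/delta and 0.17 in delta/+ cells, a difference of -0.57. Each pair holds 1 library per treatment, so neither difference was tested.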

How the results depend on the processing

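With a pseudocount of 0.1, with no filter on low values and with no replicate block (treatment as the only term) all 37 members kept the sign of their change with 4OHT; with median-ratio scaling 36 did, and Mx1 turned to -0.067. Members called lower were 27 with the pseudocount of 0.1, 19 without the filter, 32 with median-ratio scaling and 1 with no replicate block, against 26 as reported. Calls lost were Usp18 with the pseudocount of 0.1 and Usp18, Ifit2, Ifi47, Zbp1, Lgals9, Ifi27l2a and Xaf1 without the filter (adjusted p between 0.0506 and 0.130). With no replicate block the genes called were 117 higher and 116 lower; the samples that share a replicate number also share a genotype, and their deviations from the group means correlated at 0.664. Median-ratio scaling moved the median log2 change of all genes with 4OHT to -0.02, against 0.16 as reported, gave 1221 genes higher with 4OHT, and gave 425 genes lower in delta/delta cells. Without the filter the genotype comparison called 0 genes higher, 0 lower and 0 members higher by limma, with 3906 genes and 30 members at an unadjusted p under 0.05; that setting tests 17213 genes. The cause of these shifts was not tested.

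Leaving out each library in turn left room for 1 term only, so these fits compare groups of unequal genotype or treatment. With 4OHT the genes called ranged from 0 to 126 higher and from 3 to 137 lower, members called lower from 0 to 6 and their median log2 change from -1.78 to -0.43. Between genotypes 0 genes were called higher or lower and 0 members higher in each fit, at unadjusted p under 0.05 in 169 to 627 genes, and the median ranged from 0.45 to 1.76. Members whose estimate took both signs with 4OHT had log2 ranges of Apol9b -4.03 to 0.22, Bst2 -1.16 to 0.64, Ifi27l2a -2.59 to 1.30, Ifi35 -0.64 to 0.54, Ifi44 -2.28 to 0.28, Ifitm3 -2.49 to 0.14, Lgals3bp -1.17 to 0.10, Mx1 -0.82 to 1.02, Rtp4 -2.99 to 0.60, Tor3a -0.73 to 0.50, Trim25 -0.70 to 0.043, Usp18 -2.01 to 0.63 and Zbp1 -2.65 to 0.34. Between genotypes these were Cmpk2 -0.11 to 3.26, Cxcl10 -0.93 to 2.25, Eif2ak2 -0.30 to 0.67, Gbp2 -0.67 to 1.67, Gbp3 -0.48 to 1.52, Herc6 -0.49 to 1.32, Ifi47 -0.11 to 1.34, Ifit2 -1.11 to 0.23, Parp14 -0.68 to 0.77 and Samd9l -0.51 to 0.0056. Counts of reads limit Ifit3, Ifi204, Apol9b and Ifi44 most, and the pseudocount of 1 understates changes of members under about 1 RPKM.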

Other observations

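Some relatives of the effector genes moved the other way with 4OHT; they were chosen after their values were seen. Ifitm1, a membrane restriction factor of the same family as Ifitm3, had 43.4 (delta/delta) and 21.6 (delta/+) RPKM with 4OHT, against 2.41 (delta/delta) and 5.44 (delta/+) RPKM with EtOH and rose (log2 change 2.76 ± 0.43, adjusted p = 0.0101, limma), whereas Ifitm3 fell (log2 change -1.17 ± 0.12, adjusted p = 0.00459, limma). Between genotypes Ifitm1 was not called (log2 difference 0.03 ± 0.43, adjusted p = 0.966, limma). Psmb8, a catalytic subunit of the immunoproteasome, had 92.5 (delta/delta) and 50.7 (delta/+) RPKM with 4OHT, against 23 (delta/delta) and 25.2 (delta/+) RPKM with EtOH and rose (log2 change 1.47 ± 0.25, adjusted p = 0.0125, limma), and its partner subunit Psmb9 rose too, with 104 (delta/delta) and 48.4 (delta/+) RPKM with 4OHT, against 51.4 (delta/delta) and 34 (delta/+) RPKM with EtOH (log2 change 0.75 ± 0.17, adjusted p = 0.0258, limma). B2m, the light chain of class I antigen-presenting molecules, moved as the effectors did. It had 4062 (delta/delta) and 1768 (delta/+) RPKM with 4OHT, against 5643 (delta/delta) and 2512 (delta/+) RPKM with EtOH and fell (log2 change -0.49 ± 0.08, adjusted p = 0.0128, limma). The 4OHT and EtOH values of Psmb8 did not overlap between treatments, and those of B2m did.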
